A study of Mus musculus with 2 samples.

Results

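DNA replication licensing and synthesis genes were compared between 2 stable lines derived from ATDC5, an established mouse cell line of chondrocytes. The set held 43 genes, named in a list made for this work and matched by the RefSeq accession of each probe. Once spots with a scanner outlier flag were left out, 20433 named genes remained on the array, without 2 of the 43 (Gmnn and Tyms). Both lines had been made by lentiviral transduction, one labelled as overexpressing GFP, the fluorescent control protein, and the other as overexpressing HES1, a transcriptional repressor downstream of Notch. Each line gave 1 sample of total RNA, taken after 3 days of monolayer culture on 60 mm dishes, and each sample was hybridised to 1 single-colour Agilent array. The labels do not say whether a line is 1 clone or a pool, which promoter drives the transgene, or from which species HES1 came. With 1 array per group there is no replicate check, so no difference below has a p-value, and sizes are set only against the scanner software's technical error.

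Before a cell can copy its DNA, each origin is licensed in G1: the origin recognition complex, CDC6 and CDT1 load the MCM2-7 helicase onto DNA in an inactive form. At the start of S phase, CDC45 and the GINS complex join the helicase and activate it. Polymerases tethered by the clamp PCNA then copy the unwound strands, while RPA coats single strands. E2F transcription factors and cyclin E drive the transcription and the kinase activity of this step, and ribonucleotide reductase and thymidine kinase supply the nucleotides. In growth plate cartilage these genes mark the proliferating zone.

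Of the 43 genes, 40 were measured, each by a probe without an outlier flag that was well above background on both arrays. Ccne2, the gene of cyclin E2, had 1 probe, which neither array read well above background (27.5 for the GFP line and 7.8 for the HES1 line), so no fold is given. The single probes of Gmnn and Tyms were well above background on both arrays. They carried a scanner flag for an uneven local background on 1 array and were left out of the counts. Read with the flag set aside, Gmnn, the gene of geminin, which blocks CDT1, read 2707 in the GFP line and 1476 in the HES1 line, or -0.87 on the log2 scale. Tyms, the gene of thymidylate synthase, had 639 and 551 (-0.21) read the same way.

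The replication genes were mostly lower in the HES1 line, by a modest amount. Signals are in scanner units with a common 75th percentile, and compare 1 gene across the arrays, never one gene with another. Differences are log2 of the HES1 line minus the GFP line. The median over the 40 measured genes was -0.44, against -0.06 over all 14273 measured genes. Below 0 lay 36 of 40 (90.0%), against 55.0% of all genes, and this number was 35 when arrays were scaled on the probes seen on both and 34 after a loess fit on signal. The genes that turned above 0 were Orc6 under both and Pcna under the loess fit. At the 2-fold threshold only Rrm2 and Tk1 were lower, 2 of 40 (5.0%) beside 4.95% of all genes, a share near the background. No member was at least 2-fold higher, where 11.1% of all genes were, with genes detected on 1 array included. All 40 members were detected on both arrays. Of the 13076 genes left when both arrays had to be above background, 920 were at least 2-fold higher and 577 lower. At 1.5-fold, 15 of 40 (37.5%) were lower, beside 14.6% of all genes, and 0 were higher, beside 17.4%. The 15 became 9 (22.5%) under scaling on the probes seen on both arrays and 8 (20.0%) after the loess fit, beside 11.0% of all genes under each. In bulk RNA, fewer cells in S phase and less of these RNAs per cell cannot be told apart.

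The technical error of a member's log2 difference, from the scanner software's error model, was 0.20 at the median and 0.22 at most. A difference beyond 1.96 of its own errors was found for 22 genes in the lower direction (55.0% of the 40, beside 22.4% of all genes) and for 0 in the higher (beside 19.5%). Under scaling on the probes seen on both arrays, 17 genes were beyond it in the lower direction (beside 16.5% of all genes) and 1, Orc2, in the higher. After the loess fit 16 were lower (beside 16.0%), and Orc2 and Mcm6 were beyond it in the higher direction. The genes no longer beyond it under either were Cdc6, Gins1, Gins2, Gins3 and Ccne1, joined by Fen1 after the loess fit. Under a normexp background correction Mcm3 was beyond it too, and Cdc6, Gins1, Gins2 and Ccne1 were not. Bright genes as a whole also sat slightly lower. Among the 3759 genes with a mean signal between the members' quartiles (3149 and 16591), the median was -0.12 and 61.6% lay below 0. At least 2-fold lower were 3.1% of these genes. Within the 40 genes, the difference was only weakly related to the mean signal (Spearman's rho -0.10 across 40 genes, all read from the same 2 arrays).

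**Figure D1:**
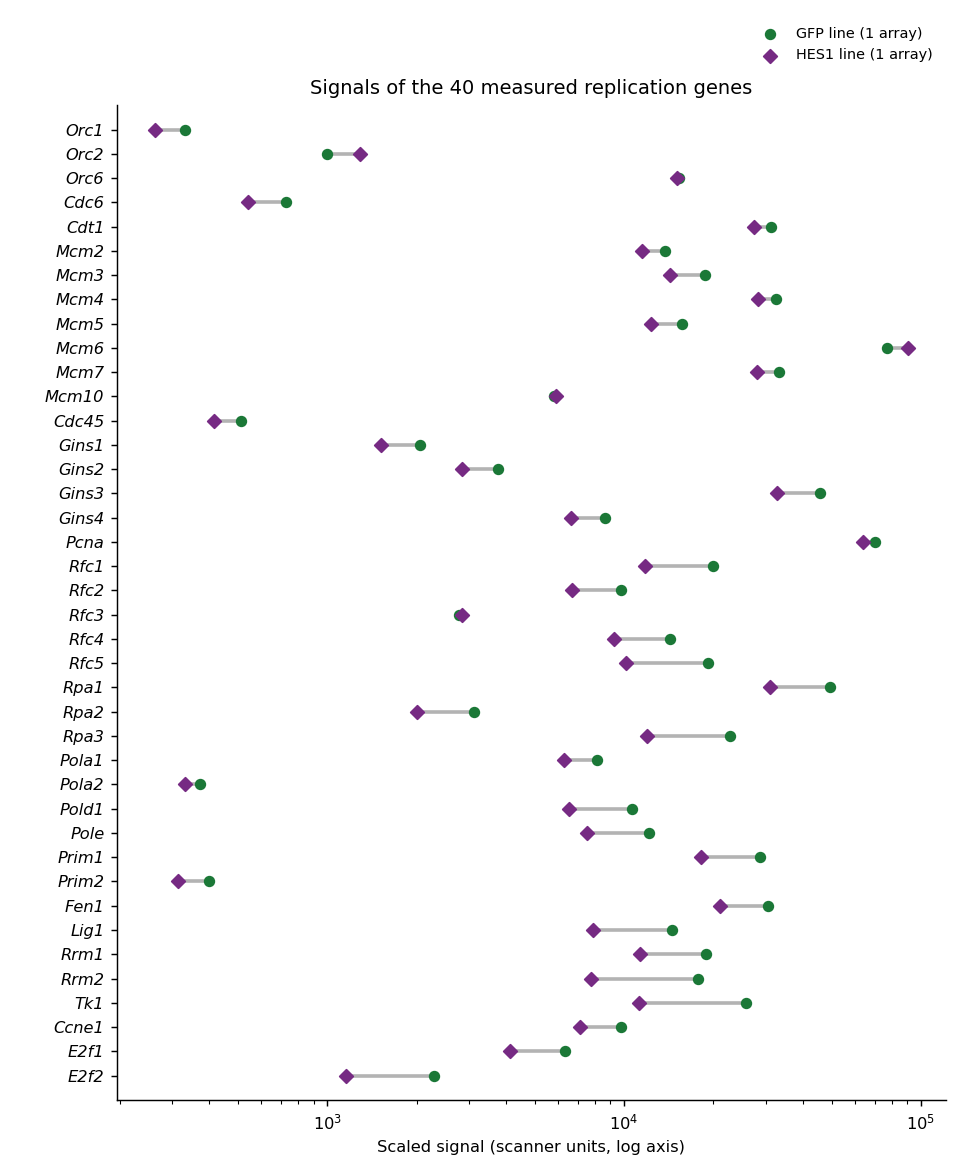
Scaled signal of each of the 40 measured replication genes on the GFP array (circles) and the HES1 array (diamonds), on a log axis in scanner units, with 1 array per line and genes in the order of their roles. The diamond lies left of the circle for 36 genes and right of it for Orc2, Mcm6, Mcm10 and Rfc3; Orc6 and Pcna changed side under another scaling.

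For reference, 3 promoters are shown. Rrm2 and Tk1 are the members that passed 2-fold, and Mcm6, chosen after its value was seen, is the helicase subunit with the higher signal in the HES1 line. Each run is the 250 bases before the RefSeq start of the gene, 5′ to 3′ on the gene's strand, build GRCm38.p6. Capitals mark matches to an E2F word, to the CCAAT box or to the cell cycle homology region (CHR) on either strand.
Rrm2, chr12:24708004-24708253, plus strand: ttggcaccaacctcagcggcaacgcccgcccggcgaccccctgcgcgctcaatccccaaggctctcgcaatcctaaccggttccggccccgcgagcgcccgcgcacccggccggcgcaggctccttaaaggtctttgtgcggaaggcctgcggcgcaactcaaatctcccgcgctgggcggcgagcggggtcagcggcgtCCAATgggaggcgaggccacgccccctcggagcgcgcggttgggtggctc
Tk1, chr11:117826015-117826264, minus strand: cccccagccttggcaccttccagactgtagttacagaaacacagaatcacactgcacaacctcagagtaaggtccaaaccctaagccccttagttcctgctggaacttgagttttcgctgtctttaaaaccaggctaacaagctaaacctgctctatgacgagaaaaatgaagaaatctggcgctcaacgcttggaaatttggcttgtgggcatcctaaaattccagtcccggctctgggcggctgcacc
Mcm6, chr1:128359706-128359955, minus strand: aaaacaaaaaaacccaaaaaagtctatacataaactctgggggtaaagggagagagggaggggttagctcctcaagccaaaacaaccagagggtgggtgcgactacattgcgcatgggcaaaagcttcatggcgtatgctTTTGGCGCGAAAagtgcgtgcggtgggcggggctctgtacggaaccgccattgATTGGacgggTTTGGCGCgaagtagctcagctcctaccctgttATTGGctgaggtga
The Mcm6 window held 3 matches to E2F words, starting 110, 106 and 47 bases before the start, the first 2 overlapping on opposite strands, and 2 CCAAT boxes on the minus strand of the printed run. The Rrm2 window held 1 CCAAT box, 50 bases before the start, and no E2F word. Tk1 held none of these words, which says only that these letters are not in the window.

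The first step is origin recognition and loading. Over its 5 measured genes the median was -0.19, with 0 past 1.5-fold. With the flagged spot of Gmnn kept, the median over 6 genes was -0.26, with 1 past 1.5-fold. Orc1, the largest subunit of the origin recognition complex, had 332 in the GFP line and 262 in the HES1 line, a difference of -0.34. Orc2, a core subunit, was the member with the largest difference upward, at 995 and 1287 (0.37). Neither difference reached 1.96 technical errors, although that of Orc2 did under scaling on the probes seen on both arrays and after the loess fit. For Orc6, the smallest subunit, the signals were nearly equal at 15305 and 15036 (-0.03), and the sign turned under a loess fit and under scaling on the probes seen on both arrays. Cdc6, the ATPase that brings the helicase to the origin, had 729 and 541 (-0.43), and its second probe read 260 and 182 (-0.52). Cdt1, its loading partner, had 31211 and 27450 (-0.19). Of the 5, Cdc6 alone was beyond 1.96 technical errors, and it fell inside them under scaling on the probes seen on both arrays (-0.32) and the loess fit (-0.27).

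The MCM2-7 genes, which encode the ring-shaped replicative helicase, lay close together, with a median of -0.24. Mcm2 had 13686 in the GFP line and 11502 in the HES1 line. Mcm3 had 18735 and 14298, and Mcm4 had 32417 and 28346. These 3 subunits were 1.19-fold, 1.31-fold and 1.14-fold lower. Mcm5 had 15671 and 12307 (-0.35), and Mcm7 had 33128 and 28109 (-0.24). Mcm6 went against the other 5 subunits, with 76594 and 90505 (0.24). None of the 6 differences exceeded 1.96 technical errors, although that of Mcm6 did after the loess fit and that of Mcm3 under normexp.

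Among the factors that turn the loaded helicase on, the 4 GINS subunits had much the same difference. Gins1 had 2061 in the GFP line and 1518 in the HES1 line (-0.44). Gins2 had 3768 and 2835 (-0.41). Gins3 had 45637 and 32709.9 (-0.48), and Gins4 had 8619 and 6639 (-0.38). The range over the 4 subunits of this complex was narrower than the technical error of 1 of them. Cdc45, their partner in the active helicase, had 514 and 414 (-0.31). Mcm10, which binds the helicase as it is activated, had nearly equal signals of 5809 and 5910 (0.02), and stood apart from the GINS genes. The median of these 6 genes was -0.39, and Gins1, Gins2 and Gins3 were beyond 1.96 technical errors, though not after the loess fit or under scaling on the probes seen on both arrays.

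The clamp and its loader did not go together. Pcna, the sliding clamp that tethers the polymerases, had 69966 in the GFP line and 63883 in the HES1 line (-0.13, above 0 after a loess fit). The replication factor C genes encode the 5 subunits of the complex that opens this clamp. Rfc1, the large subunit, had 19964 and 11795 (-0.76). Rfc2 had 9776 and 6701 (-0.54), and Rfc4 had 14257 and 9256 (-0.62), with -0.45 by its second probe. Rfc5 was the lowest of the loader, at 19234 and 10113, a 1.90-fold difference. Rfc3 alone was level, at 2790 and 2843 (0.03). Over the 5 loader genes, each read by its brightest probe, the differences ran from -0.93 to 0.03, a spread of several technical errors.

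All 3 RPA genes, which encode the single-strand binding complex, were at least 1.5-fold lower (beside 14.6% of all genes), and 1 of 3, Rpa3, under scaling on the probes seen on both arrays and after the loess fit. Rpa1, the large subunit, had 49234 in the GFP line and 31006 in the HES1 line (-0.67). Rpa2 had 3128 and 2014 (-0.64). Rpa3, the small subunit, had 22712 and 11903 (-0.93). Each of the 3 was beyond 1.96 technical errors, and the differences among them were smaller than that.

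The polymerase and primase genes were all lower, with a median of -0.52 over 6 genes and 3 of them past 1.5-fold, beside 14.6% of all genes. The 3 became 1 under scaling on the probes seen on both arrays and 0 after the loess fit. Pold1, the catalytic subunit of the lagging strand polymerase delta, had 10601 in the GFP line and 6535 in the HES1 line (-0.70). Pole, the catalytic subunit of the leading strand polymerase epsilon, had 12089 and 7511 (-0.69), while its dimmer second probe had 236 and 88.0 (-1.42), past 2-fold. Prim1, the catalytic primase subunit, had 28679 and 18174 (-0.66). The other primase subunit, Prim2, had 399 and 314 (-0.34). Pola1, the catalytic subunit of polymerase alpha, had 8126 and 6276 (-0.37), and its partner Pola2 had 372 and 331 (-0.17). Prim2, Pola1 and Pola2 were within 1.96 technical errors of 0, and Pold1, Pole and Prim1 were not.

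Okazaki fragments are trimmed by FEN1 and joined by DNA ligase 1. Fen1 had 30599 in the GFP line and 20995 in the HES1 line (-0.54). Lig1 had 14492 and 7869 (-0.88), a 1.84-fold difference. Both were beyond 1.96 technical errors, Fen1 not after the loess fit, and Lig1 was also past 1.5-fold.

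Nucleotide supply held the lowest members, with a median of -1.19 over 3 measured genes, all past 1.5-fold (beside 14.6% of all genes). With the flagged spot of Tyms (-0.21) kept, the median over 4 genes was -0.97, with 3 past 1.5-fold. Rrm2, the small subunit of ribonucleotide reductase, had 17692 in the GFP line and 7737 in the HES1 line, 2.29-fold lower (-1.19, technical error 0.20). Tk1, the cytosolic thymidine kinase of the salvage pathway, had 25791 and 11267.5, also 2.29-fold lower (-1.19). Rrm1, the large subunit of the reductase, had 18874 and 11309.8 (-0.74). Both genes past 2-fold encode proteins known to be made and destroyed within each cell cycle, whereas RRM1 is the stable partner. The arrays measure RNA, and the proteins were not measured here.

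The regulators at the head of the pathway were lower too. E2f1 and E2f2 encode activator E2Fs, which switch on many of the genes above. E2f1 had 6314 in the GFP line and 4130.1 in the HES1 line (-0.61). E2f2 had 2285 and 1157 (-0.98), just inside 2-fold. Ccne1, the gene of cyclin E1, had 9755 and 7126 (-0.45), and -0.56 by its second probe. All 3 exceeded 1.96 technical errors, Ccne1 not after the loess fit or under scaling on the probes seen on both arrays.

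**Figure D2:**
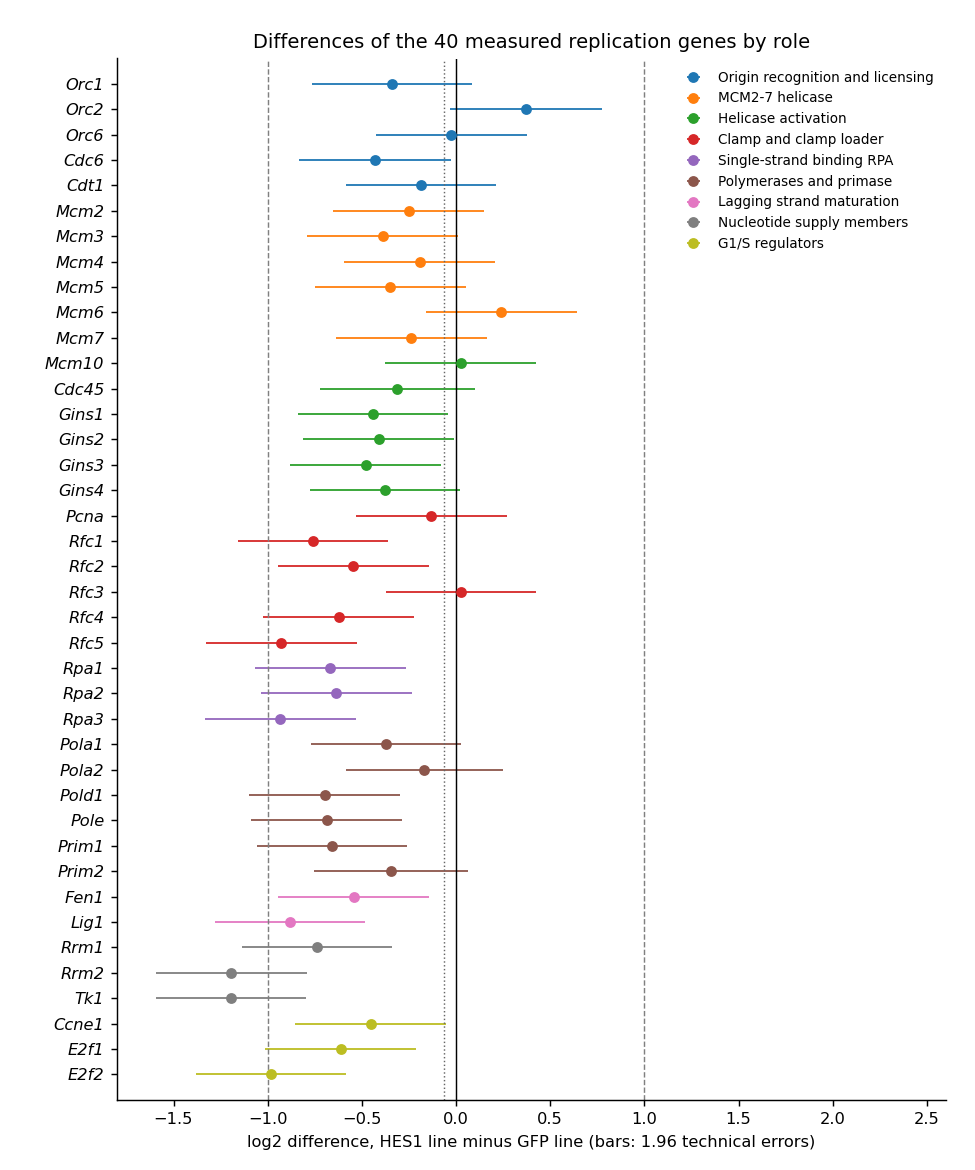
Log2 difference (HES1 line minus GFP line) of each measured replication gene, coloured by role, with bars of 1.96 technical errors from the scanner's error model, which hold no difference between cultures. Dashed lines mark 2-fold and the dotted line marks the median of all measured genes, -0.06. The licensing, MCM2-7 and helicase activation genes, in the upper rows, lie between -0.48 and 0.37, and Rrm2 and Tk1 lie beyond -1; Orc6 and Pcna change sign under another scaling.

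The roles were also joined into 2 groups. The median difference was smaller for the genes that load and activate the helicase than for the other members. These others were the DNA synthesis, nucleotide supply and G1/S regulator genes. The 17 measured genes of licensing, MCM2-7 and helicase activation had a median of -0.31, with 0 at least 1.5-fold lower. The other 23 genes had a median of -0.66, with 15 at least 1.5-fold lower (65.2%, beside 14.6% of all genes). These are the same 15 genes as above. The count for the first group was 0 after the loess fit and under scaling on the probes seen on both arrays too. That of the other 23 genes fell from 15 to 8 after the loess fit and to 9 under that scaling, beside 11.0% of all genes under each. With flagged spots kept, Gmnn joined the first group as 1 of 18 genes past 1.5-fold. The joining of the roles into 2 groups was chosen after the values were seen, and the difference between the groups was not tested.

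Other genes of the pathway, taken from lists that do not overlap the 43, gave similar values. Of 31 other licensing and fork genes, 29 lay below 0 and the median was -0.42. In this list 4 genes were at least 2-fold lower (beside 4.95% of all genes) and 0 higher. The 4 were Dna2, a nuclease-helicase of Okazaki fragment processing (671 and 271), and Chtf18, a subunit of an alternative clamp loader (7426 and 3079). They also included Top2a, the topoisomerase that untangles sister chromatids (7209 and 3063), and Rnaseh2c, a subunit of the enzyme that removes ribonucleotides from DNA (30359 and 13987). Their log2 differences were -1.31, -1.27, -1.24 and -1.12, and Rnaseh2c was at -0.96 after the loess fit. Of 8 chromatin assembly and DNA methylation maintenance genes, all lay below 0 (median -0.46), and the histone chaperone gene Asf1b was past 2-fold (10613 and 5087, at -1.06). That gene was at -0.95 under scaling on the probes seen on both arrays, at -0.92 after the loess fit and at -0.995 under a normexp background correction.

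Nucleotide genes outside the list did not share the low values of Rrm2 and Tk1. Their median was -0.04, and 2 of 13 (15.4%) were at least 2-fold higher, beside 11.1% of all genes, with genes detected on 1 array included. Samhd1, an interferon-inducible enzyme that breaks down deoxynucleotides, had 10286 in the GFP line and 33640 in the HES1 line, 3.27-fold higher, and its second probe gave 1.78 on the log2 scale. Dut, which removes dUTP from the pool, was the lowest at -0.77 by the brightest probe of each gene. A second probe of Dtymk gave -0.89, against -0.33 by its brightest.

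E2F, retinoblastoma family and S phase kinase genes gave both directions. The median over 18 measured genes was -0.43, with 4 past 2-fold in the lower direction (22.2%, beside 4.95% of all genes) and 1 in the higher (5.6%, beside 11.1%). Among the repressor E2Fs, E2f7 and E2f8, which are themselves E2F targets, were lower, while E2f4 was at 0.30, E2f6 at 0.17 and E2f5 at -0.50. E2f8 had 3363 in the GFP line and 1102 in the HES1 line (-1.61), and E2f7 had 4610.1 and 1828 (-1.33), although a dim second E2f7 probe was slightly higher in the HES1 line (0.25), which put the median of the 2 probes at -0.54. Ccna2, the cyclin of S phase and G2, had 16852 and 6606 (-1.35), and the pocket protein gene Rbl2 had 667 and 326 (-1.03), and stayed within 2-fold under the loess fit (-0.88), scaling on the probes seen on both arrays (-0.92) and normexp (-0.71). Cdkn1a, which encodes p21, an inhibitor of cyclin E and cyclin A kinases that also binds PCNA, had 316 and 1412, 4.48-fold higher. The log2 difference of Cdkn1a was 2.16, and 1.74 under normexp.

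The mitosis list differed by more than the replication genes. All 30 of its genes lay below 0 and 28 were at least 2-fold lower (93.3%, beside 4.95% of all genes and 5.0% of the replication genes), with a median of -1.42. The 28 became 25 under scaling on the probes seen on both arrays, 24 after the loess fit and 24 under normexp. Mki67, the gene of the proliferation antigen Ki-67, had 29151 in the GFP line and 8203 in the HES1 line. The mitotic kinase gene Aurkb had 274 and 73.8 (-1.89, and -1.16 under normexp). Cenpf, a kinetochore gene, was dim in the HES1 line, below the limit for well above background (91.4 and 16.2), and was at least 2.34-fold lower. Under the normexp correction its difference was -0.54. The median difference of the mitosis genes thus lay below the lowest replication gene, Tk1, at -1.19. With 1 array per line the gap between the lists was not tested.

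**Figure D3:**
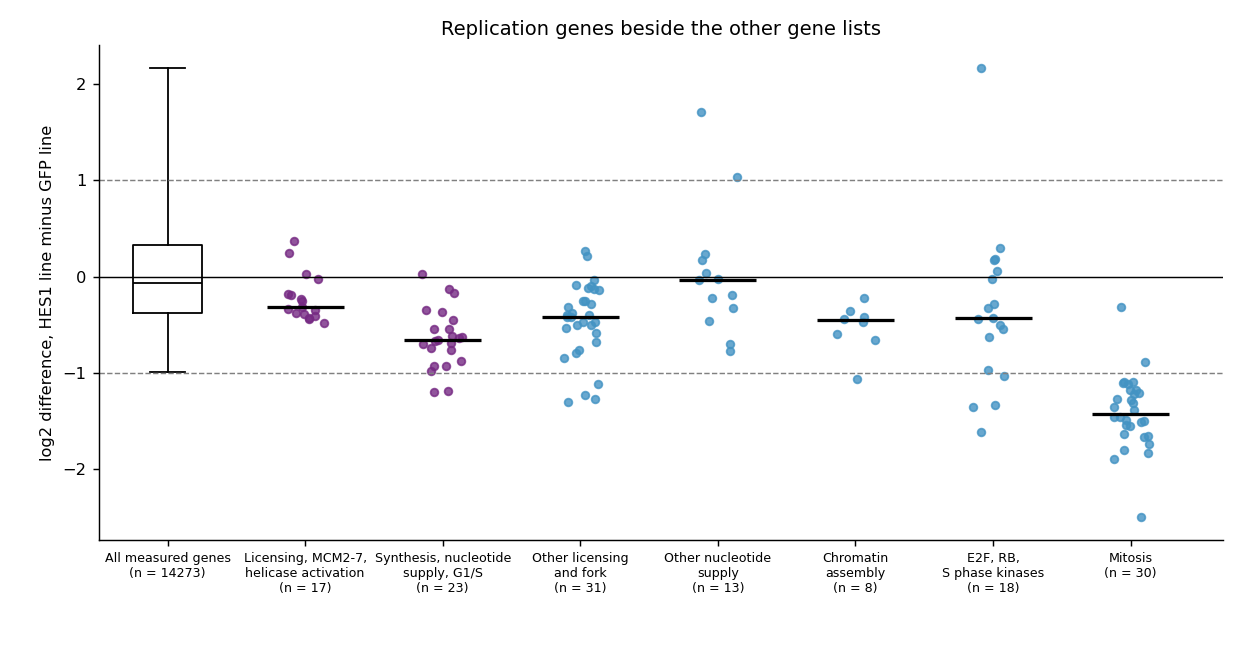
Log2 difference (HES1 line minus GFP line) of each gene, as points, for the replication genes in 2 groups of roles and for 5 other lists. Bars mark the medians and dashed lines mark 2-fold. All measured genes are drawn as a box of the quartiles with whiskers at the 5th and 95th percentiles. The medians run from -0.04 for other nucleotide genes to -0.31 and -0.66 for the 2 replication groups and -1.42 for mitosis.

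The promoters of the replication and mitosis genes held different words. A RefSeq promoter window, from 250 bases before to 50 after a gene's start, was found for 34 of the 43 genes and for 26 of the 30 mitosis genes. An E2F word (TTTCGCGC, TTTCCCGC, TTTGGCGC or TTTGCCGC, on either strand) was in a window of 13 of the 34 replication genes (38.2%), against 1 of 26 mitosis genes (3.8%) and 2.6% of all 27025 genes with a window. The CHR word TTTGAA, an element known from promoters of genes that peak in G2 and mitosis, was in 5 replication genes (14.7%), 19 mitosis genes (73.1%) and 20.2% of all genes. CCAAT was in 22 (64.7%), 21 (80.8%) and 41.1%. Among words that HES1 is known to bind, the N box (CACNAG) was in 19 of 34 replication genes (55.9%), 34.6% of the mitosis genes and 46.1% of all genes. The class C site (CACGCG) was in 4 (11.8%), 7.7% and 10.5%. A match is a description of letters, not of binding.

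Within the replication genes, the 13 measured genes with an E2F word had a median difference of -0.37, and the 20 without had -0.62. The 13 ranged from -0.98 to 0.24, with Mcm3, Mcm5, Mcm6, Mcm7, Cdc6, Cdt1, Orc1, Gins3, Pola1 and Rfc3 between -0.48 and 0.24, and Pold1 (-0.70), Lig1 (-0.88) and E2f2 (-0.98) below them. For the CHR word the medians were -0.48 over 5 genes (Cdc45, E2f2, Fen1, Gins3 and Mcm2) and -0.44 over 28. For the N box they were -0.64 over 18 and -0.31 over 15. Genes with a CCAAT box had -0.36 over 22, against -0.61 over 11 without. These medians were not tested, and the words are shared within families such as the MCM genes.

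**Figure D4:**
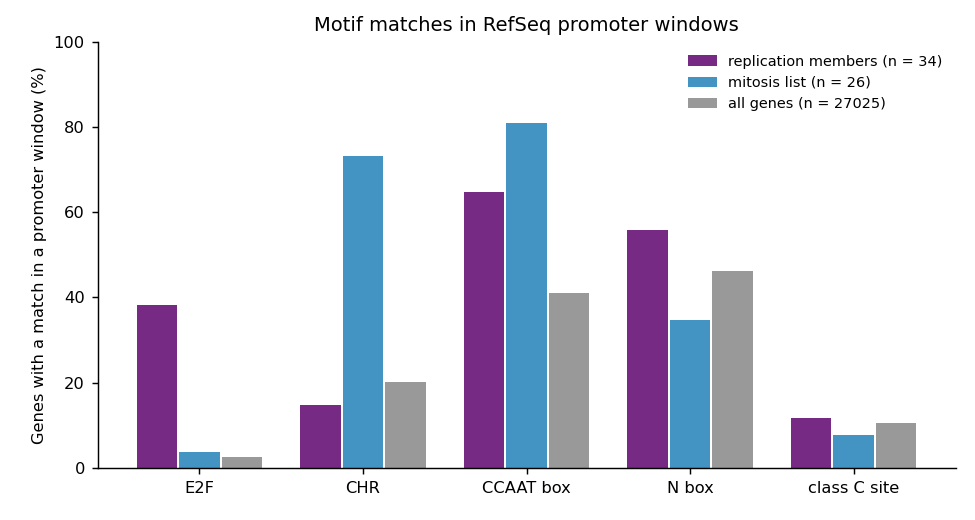
Percent of genes with at least 1 match to each word on either strand of a RefSeq promoter window, for 34 replication genes, 26 mitosis genes and all 27025 genes with a window. The E2F word was in 38.2% of the replication genes and 3.8% of the mitosis genes, and the CHR word in 14.7% and 73.1%.

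Facts of the arrays as a whole bear on these values. Mouse Hes1 had 1 probe, at background level in the GFP line (10.2) and the HES1 line (10.3), so it checked neither label. The arrays detected similar shares of their spots, 54.6% for GFP and 56.6% for HES1. The 8 spike-in controls detected on both arrays differed by -0.08 to 0.10. Of 8 chondrocyte markers, 6 were measured, Sox9, Col2a1 and Acan among them, while Matn1 and Hapln1 were not above background. Their summed signal was 19857 in the GFP line and 12070.5 in the HES1 line, and their median log2 difference was -0.28. For macrophages, 3 of 7 markers were measured (Ptprc, Csf1r and Cd14), with Adgre1, Tyrobp and Lyz2 not above background and summed signals of 2545 and 2576. Of 5 endothelial markers 2 were measured (summed 8539 and 8858), and of 4 adipocyte markers 2 (3133 and 3680). Of 5 epithelial markers 2 were measured (113 and 126), and of 4 muscle markers 1 (1043 and 863). The part of these markers in the differences above was not tested.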

How the data were processed

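Total RNA of 2 ATDC5 lines, 0.1 µg each, was labelled with Cy3 and read on 1-colour Agilent arrays, 1 per line. Per the file headers, the deposited scanner files hold an intensity per spot from Agilent Feature Extraction 10.10.1.1, background-corrected and detrended, with no scaling between arrays. The authors' deposited value table holds the same intensity times 1 factor per array (1.45 for GFP, 1.53 for HES1). Probe annotation was on mm9, per the file headers.

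Processed signals were divided by their array's 75th percentile over 59305 non-control spots and taken to log2. Printed signals are these values with the 75th percentile set to 1057.2. The 1053 spots with an outlier flag were left out and spots of a probe averaged. Accessions were named through a RefSeq table of GRCm38.p6, which gave symbols to 26869 of 54948 probes (48.9%). Where a gene had several probes, the brightest stood for it, after probes at background on both arrays were dropped. A difference was called at 2-fold, and no test was run with 1 array per group. The number of arrays limits the precision. Technical error came from the scanner software's error per spot. A gene seen on 1 array is given as a bound, with the dim side set to no less than the detection limit of its array (38.1 for GFP, 39.0 for HES1).

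The members, lists, roles and alternatives were chosen with earlier results of these data known. Every member is named; in other lists, members past 2-fold (1 of them is not reported here), the lowest of the nucleotide list and 3 mitosis genes of the lowest are. The genes Mcm6 (for its promoter), Dut, Dtymk, Matn1, Hapln1, Ptprc, Csf1r and Cd14 were named after their values were seen. Alternatives were quantile normalization, other scalings, a loess fit (span 0.3), normexp (offset 50), the deposited values, other filters and probe rules, bounds, and thresholds of 1.5-fold and 3-fold. Computation used Python 3.11.15 with pandas 2.3.3 and R 4.3.3 with limma 3.58.1. The gene functions were tested on simulated data.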

Additional observations from a re-analysis of the deposited data

How the results depend on the processing

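With 1 array per line, leaving out a replicate was not possible, and no paired analysis was possible because each group held a single array. Over 11 alternatives that keep the threshold, the median of the replication genes ran from -0.46 to -0.29, that of the mitosis list from -1.45 to -1.26, and the number of replication genes at least 2-fold lower was 2 or 3. Scaling on the probes seen on both arrays and the loess fit raised the median of all genes from -0.06 to 0.05 and 0.06, and the replication median to -0.32 and -0.29. Of 440 values of single members under these alternatives, 439 moved by less than their technical error, and Pole moved to -1.05 by the median of its probes. The sign changed in 3: Orc6 (0.09 and 0.13) under those scalings and Pcna (0.06) after the loess fit. The count of synthesis, nucleotide supply and G1/S genes at least 1.5-fold lower was 9 and 8 under them, from 15. With flagged spots kept, 1 licensing gene passed 1.5-fold. A normexp correction gave 850 genes higher and 339 lower among all genes, from 1582 and 707, and 920 were higher where both arrays had to be above background; the causes were not tested. At 1.5-fold, 15 replication genes were lower, with 2480 of all genes higher and 2084 lower. At 3-fold, 0 replication genes and 8 mitosis genes were lower (Cenpf by its measured difference, not by its bound), with 997 of all genes higher and 178 lower. Scaling on the spike-in controls, chosen after seeing the data, gave a replication median of -0.42. The planned normexp correction used median spot signals, since mean spot signals were not used here.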
